A study of Mus musculus with 4 samples.

Results

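Serpins are a family of proteins that share 1 fold, and most of them are inhibitors of serine or cysteine proteases. An inhibitory serpin presents an exposed loop as bait, is cut by its target protease and then traps it in a covalent complex. Vertebrate serpins are sorted into clades by sequence: clade A holds antitrypsin-like secreted proteins, clade B proteins that stay mostly inside the cell, clade E the inhibitors of plasminogen activators, and some members, such as the collagen chaperone HSP47, inhibit no protease. In melanoma and other tumors serpins are studied for their part in matrix turnover, plasminogen activation, clotting and resistance to the proteases of cytotoxic lymphocytes.

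The serpin genes were described in RNA of B16F10 mouse melanoma cells from 4 sources. The members were the rows of the count table whose refGene symbol had the form of a clade A to I serpin gene and that had at least 10 reads summed over the 4 libraries, 36 genes of 24527 gene symbols. They were thus chosen by name and by read counts of these same libraries. The name alone matched 63 symbols. Of these, 14 had no read in any library and 13 had 1 to 9 reads. Just inside the limit was Serpina12 with 12 reads and just outside it Serpina1d with 8 reads. The family was taken up because Serpinb9b had one of the lowest ratios of spheroids to monoculture in earlier results of these data, so that ratio is a description only.

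The 4 libraries were 2D monoculture (B16F10 cells grown alone on plastic), 2D co-culture (B16F10 on plastic with NIH/3T3 mouse fibroblasts), spheroids (both lines together in hanging drops) and tumor (B16F10 cells injected under the skin of year-old female C57BL/6 mice). All samples carried the label WT, and by the methods the cells were of the Linterna B16F10 line, a single commercial line with a green fluorescent protein, sorted from the cultures by that fluorescence. For the tumor, the methods and the series describe sorted cells, whereas the label of the library names snap-frozen tissue. The methods give more than 1 sample for the RNA extraction, and whether a library is 1 sample or a pool is not stated. Each source is 1 library, so that differences stand without replication and p-values are left out. The libraries held 118896900 to 150028663 counted reads. Levels are CPM, reads of a gene per 1000000 reads after scaling with TMM factors, and 95% intervals cover counting error only, since reads without molecular identifiers are not independent molecules. Of 8 melanocyte genes, 8 had at least 1 CPM in every library, with summed levels between 11420 CPM in spheroids and 20122 CPM in the tumor. Host markers were high in the tumor library alone, with summed levels of 1955 CPM for 10 myeloid genes, 258 CPM for 7 endothelial genes and 4599 CPM for 5 skeletal muscle genes, against at most 29.95, 4.58 and 12.4 CPM in the cultures. The 9 fibroblast genes summed to 17.6 CPM in monoculture, 36.5 CPM in spheroids, 679 CPM in co-culture and 2728 CPM in the tumor.

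In all libraries serpin reads came mostly from 1 gene, Serpinh1. The family held 0.178% of the reads of monoculture (interval 0.178% to 0.179%), 0.217% of co-culture (0.216% to 0.218%), 0.202% of the tumor (0.201% to 0.202%) and 0.274% of the spheroid (0.273% to 0.274%). Without Serpinh1 the order changed: the share was 0.0800% in the tumor, 0.0206% in monoculture, 0.0199% in co-culture and 0.0123% in spheroids. Outside Serpinh1, then, the tumor library held the most serpin reads and the spheroid the fewest. A mean of at least 1 CPM over the libraries was reached by 16 members, of which 15 are described below. Of these 16, 13 had their highest level in the tumor, 1 in monoculture (Serpinb9b), 1 in co-culture (Serpinf1) and 1 in spheroids (Serpinh1). The lowest level lay in spheroids for 7 of the 16 and in monoculture for 5, and Serpinb2 had 0 reads in both. Some of these places rest on a few reads. Serpine2 had 5 reads in spheroids and 7 in monoculture, and Serping1 had 8 in spheroids and 8 in co-culture. Serpina3c, lowest in monoculture, had 1 read there and 1 in spheroids. Under 1 CPM in all 3 cultures lay 6 of the 16, which passed the limit through the tumor library alone. All 6 are among the 13 highest in the tumor, a place that the limit fixed for them. Serpina3n, at 0.140, 1.29 and 0.228 CPM in monoculture, co-culture and spheroids, also reached the limit only with its tumor level. Its place as highest in the tumor was thus fixed as well. How often all genes are highest or lowest in each library was not counted, so these counts only describe the members.

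**Figure D1:**
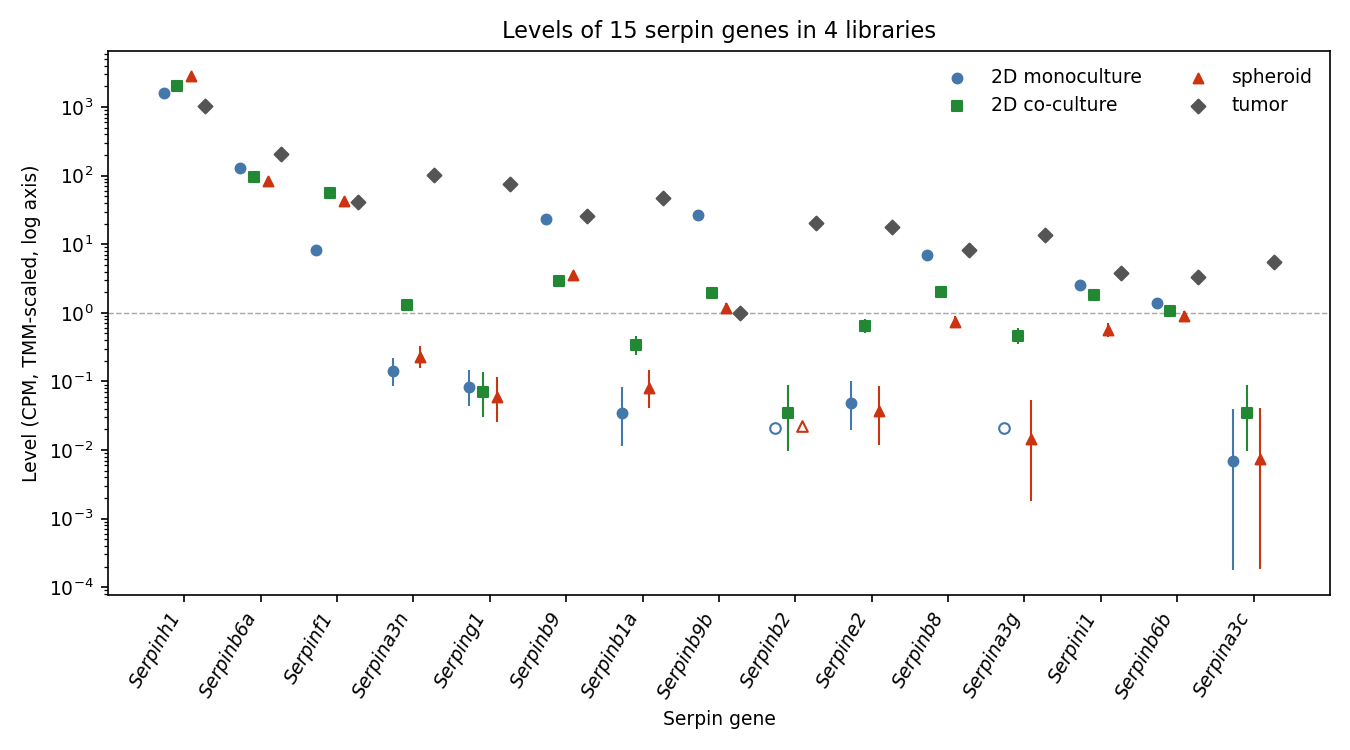
Level of 15 serpin genes in each library, in TMM-scaled CPM on a log axis, ordered by mean level. Bars are 95% intervals for counting error, open symbols mark 0 reads and stand at the level of 3 reads, and the dashed line is 1 CPM. Serpinh1 lies at 1045 CPM or above in all 4 libraries, whereas Serping1, Serpinb1a and Serpina3n lie far higher in the tumor than in the cultures.

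Levels were compared between genes per kilobase of the longest transcript. Serpinh1 was the highest member in all libraries, with 705 CPM per kb in monoculture, 900 in co-culture, 1266 in spheroids and 460 in the tumor, and Serpinb6a was second in all 4 with 59.5, 43.9, 37.7 and 95.7 CPM per kb. Per kilobase of all exon bases of a gene, Serpinf1 stood second in co-culture (23.3 against 17.8 CPM per kb for Serpinb6a) and in spheroids (17.9 against 15.3), and Serpina3n in the tumor (49.6 against 38.8), so the second place depends on the length used. With the longest transcript the third place was held by Serpinb9b in monoculture (8.22 CPM per kb), by Serpinf1 in co-culture (30.1) and the spheroid (23.1), and by Serpina3n in the tumor (49.6). Of the 15 pairs of neighbours in this order, 7 in monoculture, 8 in co-culture and 9 in spheroids had overlapping intervals. In the tumor this held for 1 pair, Serpina3g and Serpinb9.

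Serpin genes lay on both sides of monoculture in the other libraries. A gene was counted as higher or lower when its level, with 1 CPM added to both values, lay over 2-fold apart. For spheroids, 1 of the 16 genes was higher than in monoculture, beside 11.2% of the 12728 genes that reached a mean of 1 CPM, and 5 were lower, beside 17.9%. In co-culture 3 were higher, beside 3.79%, and 3 lower, beside 9.51%. In the tumor 9 were higher, beside 14.8%, and 1 lower, beside 18.2%. The median log2 ratio of the 16 genes was -0.03 for spheroids, 0.04 for co-culture and 2.45 for the tumor, next to 0.05, 0.01 and -0.14 over all genes. These comparisons share the monoculture library, and Serpinb9b is among the lower genes of each. Its ratio of spheroids to monoculture led to the choice of the family, so the 5 lower genes in spheroids hold a gene chosen for being low. Between spheroids and tumor 13 serpin genes were lower in spheroids, beside 27.6%, and 1 was higher, beside 26.8%, with a median of -2.62 next to 0.08 over all genes. Between spheroids and co-culture 1 gene was lower, beside 8.46%, and 0 were higher, beside 9.54%.

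The 6 genes under 1 CPM in every culture passed the limit only because they were high in the tumor, and they account for 6 of its 9 higher genes. Among the 10 genes with at least 1 CPM in a culture, a restriction chosen after seeing the data, the spheroid had 5 lower genes and 1 higher gene against monoculture, beside 19.1% and 11.9% of 11916 genes. Co-culture had 3 higher and 3 lower, beside 4.05% and 10.2%, and between spheroids and co-culture 0 were higher and 1 lower, beside 10.2% and 9.04%. In the tumor 3 were higher and 1 lower than in monoculture, beside 9.08% and 19.5%, and between spheroids and tumor 1 was higher and 7 lower, beside 28.6% and 22.8%. The restriction took out 6 genes counted as higher in the tumor and none counted for spheroids or co-culture against monoculture. The tumor count can therefore not be ranked against the other counts. Serpina3n, which stayed in, reached the limit only with its tumor level. This fixed it as 1 of the 3 higher in the tumor and 1 of the 7 lower in spheroids than in the tumor. Against monoculture the median of the 10 genes was -0.92 for spheroids, -0.28 for co-culture and 0.57 for the tumor. Serpinb9b, whose ratio led to the choice of the family, is again among the lower genes against monoculture. In bulk RNA, fewer cells of a type and less RNA per cell cannot be told apart.

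**Figure D2:**
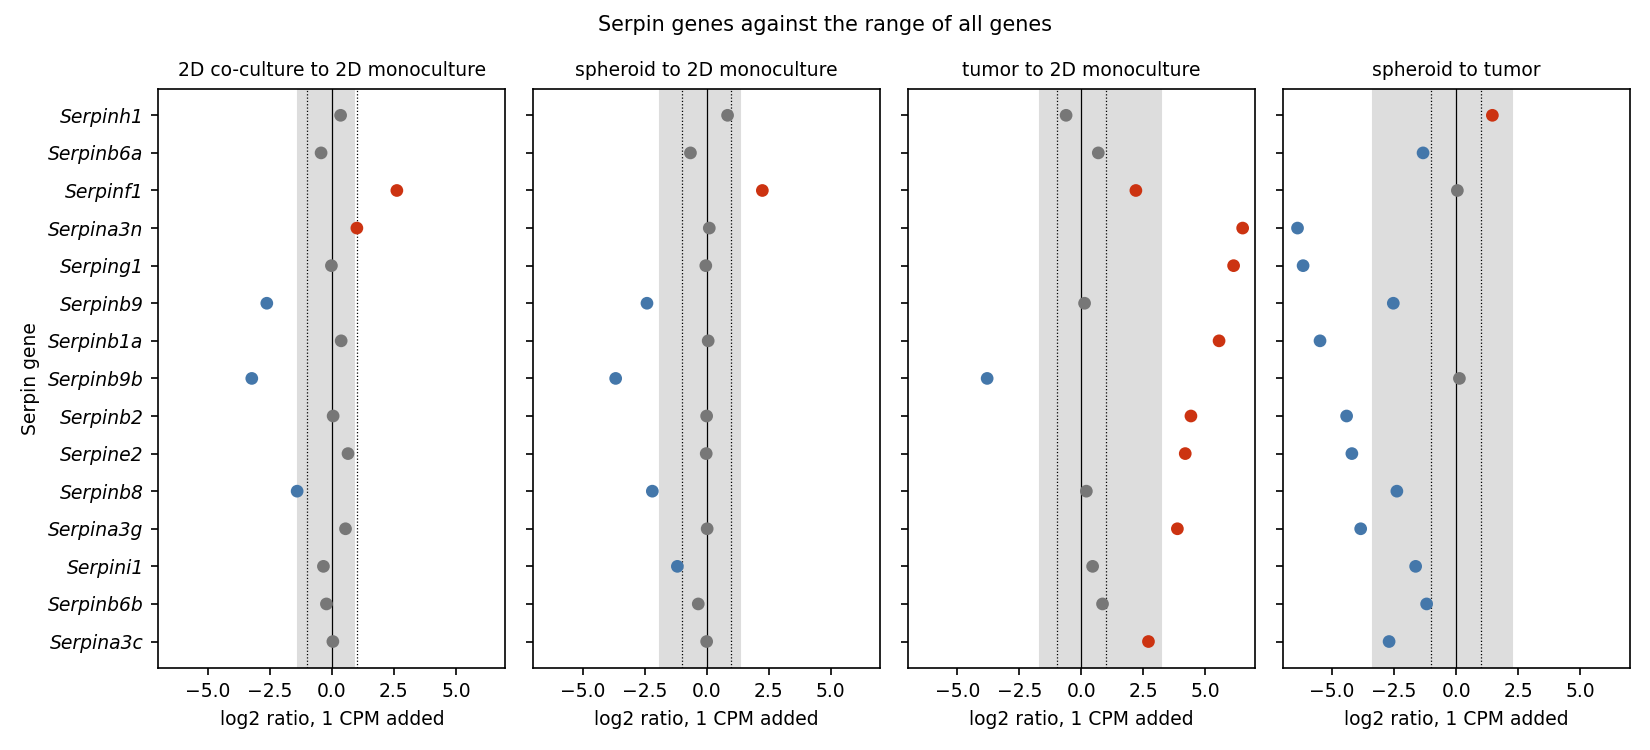
The log2 ratio of 15 serpin genes in 4 comparisons, with 1 CPM added to both levels. Grey bands span the 5th to the 95th percentile of all genes that reached a mean of 1 CPM, dotted lines mark 2-fold, and red and blue points lie beyond it. Serpinb9b, Serpinb9 and Serpinb8 lie left of the band in both cultures grown with fibroblasts, Serpinb8 at its very edge in co-culture. In the tumor against monoculture 8 genes lie beyond 2-fold on the right.

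Clade B serpins have no classical signal peptide, and several of them guard cells against proteases that leak from granules or enter from outside. Serpinb9b (ENSMUSG00000021403.3, chr13:33027416-33041884, plus strand, mm10) is a paralog of Serpinb9, which encodes the mouse inhibitor of granzyme B, the protease that cytotoxic lymphocytes deliver into target cells. The neighbouring Serpinb9 (chr13:33003250-33017957, plus strand) and the clade B gene Serpinb8 on another chromosome (chr1:107590006-107610484, plus strand), whose product inhibits the proprotein convertase furin, were the other members with a drop of more than 2-fold in both cultures with fibroblasts. Their promoters are shown because these 3 genes were low together. Each run holds 250 bases before and 50 bases after the start in RefSeq on build GRCm38.p6, read 5′ to 3′ on the strand of the gene, and capitals mark motifs found in it.
Serpinb9b, chr13:33027164-33027463, plus strand: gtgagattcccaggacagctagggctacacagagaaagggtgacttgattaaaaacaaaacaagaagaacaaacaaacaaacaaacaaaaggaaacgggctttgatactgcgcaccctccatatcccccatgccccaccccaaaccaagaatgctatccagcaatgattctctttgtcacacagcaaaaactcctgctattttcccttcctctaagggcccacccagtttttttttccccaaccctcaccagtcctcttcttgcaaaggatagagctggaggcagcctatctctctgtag
Serpinb9, chr13:33004291-33004590, plus strand: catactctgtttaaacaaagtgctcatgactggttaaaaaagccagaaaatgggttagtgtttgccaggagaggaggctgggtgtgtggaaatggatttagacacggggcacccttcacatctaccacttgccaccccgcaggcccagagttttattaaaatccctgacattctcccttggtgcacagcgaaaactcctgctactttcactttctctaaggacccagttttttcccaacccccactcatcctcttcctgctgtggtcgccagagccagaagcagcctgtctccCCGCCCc
Serpinb8, chr1:107589756-107590055, plus strand: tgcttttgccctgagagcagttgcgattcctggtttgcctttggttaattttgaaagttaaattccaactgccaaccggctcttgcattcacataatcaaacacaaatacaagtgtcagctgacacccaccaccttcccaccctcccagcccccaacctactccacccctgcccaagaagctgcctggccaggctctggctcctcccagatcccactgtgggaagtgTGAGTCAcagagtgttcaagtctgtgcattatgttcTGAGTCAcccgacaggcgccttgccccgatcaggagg
Each motif was searched on both strands. The core promoter motifs were the TATA box, searched as TATAAA, the GC box that binds Sp1, searched as GGGCGG, and the box that binds the factor NF-Y, searched as CCAAT. For signalling, the core of the hypoxia response element was searched as ACGTG and the box that binds SMAD factors downstream of TGF-beta as CAGACA. The AP-1 site of Fos and Jun factors was searched as TGACTCA, the site of STAT factors as TTCNNNGAA and the cyclic AMP response element as TGACGTCA. The E-box bound by MITF, the main factor of the melanocyte lineage, was searched as CATGTG, and the heat shock element as 3 alternating repeats of its unit. Serpinb8 held the AP-1 letters at bases -23 and 14 from its start, a motif found in 5.20% of 32851 RefSeq promoters of the same length. Serpinb9 held 1 GC box at base 44, a motif in 35.7% of promoters, and Serpinb9b held none of the letters searched, which says nothing about the factors. Of the 16 genes, 13 matched an entry of the promoter table, with 15 entries in all, and Serping1 and Serpinb1a are named only.

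Serpinb9b had 26.7 CPM in monoculture (3810 reads), 1.96 CPM in co-culture (224 reads), 1.18 CPM in spheroids (161 reads) and 0.992 CPM in the tumor (161 reads). It was thus high in 1 library and low in the other 3, tumor included. The log2 ratio to monoculture with nothing added was -4.50 in spheroids (interval -4.74 to -4.27), -3.77 in co-culture (-3.97 to -3.58) and -4.75 in the tumor (-4.99 to -4.53). Expressed as folds, monoculture was 22.6, 13.7 and 27.0 times higher. Between spheroids and tumor the log2 ratio was 0.25, and its interval of -0.07 to 0.58 spans 0. With 1 CPM added, Serpinb9b was the 5th lowest of 12728 genes between spheroids and monoculture, the 5th lowest for co-culture and the 11th lowest for the tumor.

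Serpinb9 had 23.4 CPM in monoculture, 2.95 CPM in co-culture, 3.60 CPM in spheroids and 25.6 CPM in the tumor. Like Serpinb9b it was low in both cultures with fibroblasts, but its tumor level was 1.10 times that of monoculture (log2 ratio 0.13, interval 0.07 to 0.20). The log2 ratio to monoculture was -2.70 in spheroids (-2.84 to -2.56) and -2.99 in co-culture (-3.15 to -2.82). In monoculture the paralogs had 3810 and 3330 reads, and in the tumor 161 and 4161. The longest transcripts of the pair were identical at 78.3% of 1957 aligned bases, and they shared no exact window of 150 bases, the read length, with each other or with another gene. Of the exon bases of Serpinb9b, 8.30% overlap the antisense gene Gm36099.

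Serpinb8 followed the same order as Serpinb9 in the 2D cultures and the tumor. It had 6.95 CPM in monoculture, 2.01 CPM in co-culture, 0.742 CPM in spheroids and 8.13 CPM in the tumor, so that the spheroid was lowest. The log2 ratio of spheroids to monoculture was -3.23 (-3.54 to -2.93) and that of co-culture to monoculture -1.79 (-2.00 to -1.58). With 1 CPM added the latter was -1.40, and -0.94 once the median of genes of like GC content and length was removed, which ends that call. Granzyme B itself was at 0 reads in monoculture and the spheroid, and the 8 cytotoxic lymphocyte genes summed to 8.10 CPM in the tumor and at most 0.0349 CPM in the cultures. Their part in the tumor level of Serpinb9 was not tested.

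Serpinb6a (chr13:33917918-34002794, minus strand), an inhibitor of cathepsin G and other granule proteases, was the clade B gene with the most reads. It had 130 CPM in monoculture, 96.1 CPM in co-culture, 82.5 CPM in spheroids and 209.6 CPM in the tumor. The cultures with fibroblasts thus lay 1.36 and 1.58 times under monoculture, within 2-fold. Serpinb6b had the same order at a much lower level, 1.40, 1.06, 0.896 and 3.33 CPM. Some reads of Serpinb6a may belong to genes on the other strand, since 14.1% of its exon bases overlap Nqo2 and 4.46% overlap Ripk1, and the library kit as named does not record strand.

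The serpins of chromosome 13 lie in 1 cluster, and its members did not move as a block. Between the flanking gene Wrnip1, which was higher in spheroids (88.6 CPM) than in monoculture (59.5 CPM), and Serpinb6a lie 15 listed genes. Of these, Serpinb9 and Serpinb9b are direct neighbours and were both low in the cultures with fibroblasts, whereas Serpinb9c, Serpinb9d, Serpinb9e and Serpinb9f had 0 reads in all libraries. Serpinb1c, a low member, had 37 reads in monoculture, 0 in co-culture, 3 in spheroids and 62 in the tumor, the order of Serpinb9.

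**Figure D3:**
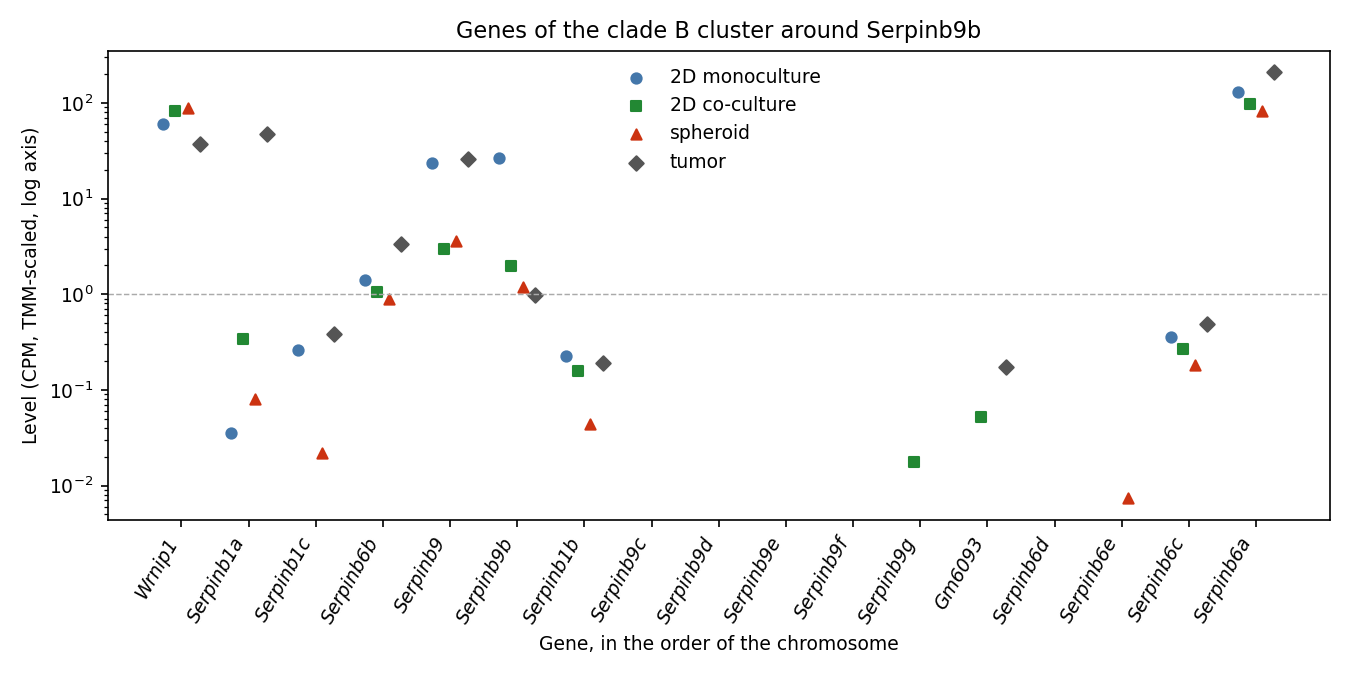
Level of the genes around Serpinb9b in chromosome order, in TMM-scaled CPM on a log axis, for the 4 libraries. Levels of 0 are not drawn. For Serpinb9 monoculture and the tumor stand high at 23.4 and 25.6 CPM, for Serpinb9b monoculture stands alone at 26.7 CPM, and for Serpinb1a the tumor stands alone at 47.5 CPM.

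The remaining clade B genes among the 16 were near 0 in the cultures. Serpinb1a, which encodes an inhibitor of neutrophil elastase, had 0.0351 CPM in monoculture, 0.341 CPM in co-culture, 0.0808 CPM in spheroids and 47.5 CPM in the tumor. Serpinb2, which encodes plasminogen activator inhibitor 2, had 20.4 CPM in the tumor, 4 reads in co-culture and 0 reads in monoculture and the spheroid. Against 3 reads in monoculture, the limit set here for a count of 0, the tumor was at least 967-fold higher, and the exact interval of the log2 ratio began at 9.62. Of the exon bases of Serpinb2, 12.4% overlap Serpinb10, which had 80 reads in the tumor and 0 in each culture.

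Plasminogen activators turn plasminogen into plasmin, which digests fibrin and matrix, and several serpins inhibit them. Serpini1, which encodes neuroserpin, an inhibitor of tPA in the nervous system, had 2.55 CPM in monoculture, 1.80 CPM in co-culture, 0.565 CPM in spheroids and 3.86 CPM in the tumor. Its log2 ratio of spheroids to monoculture was -2.17 (-2.55 to -1.81), or -1.18 with 1 CPM added and -0.71 with the GC and length classes removed. Serpine2, which encodes protease nexin 1, an inhibitor of thrombin and plasminogen activators, had 0.0491 CPM in monoculture, 0.646 CPM in co-culture, 0.0367 CPM in spheroids and 18.1 CPM in the tumor. On 7 reads in monoculture, its log2 ratio to monoculture was 3.72 in co-culture (2.60 to 5.08) and 8.53 in the tumor (7.48 to 9.84).

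The plasminogen activators uPA (Plau) and tPA (Plat) followed their own orders. Plau had 0.569 CPM in monoculture, 2.49 CPM in co-culture, 0.698 CPM in spheroids and 36.1 CPM in the tumor, as with Serpine2 highest in the tumor and next in co-culture. Plat had 7.05, 5.88, 2.30 and 26.8 CPM in the same libraries, with the spheroid lowest. Plaur, the receptor of uPA, had another order: 92.4 CPM in spheroids, 56.4 CPM in monoculture, 51.5 CPM in co-culture and 14.0 CPM in the tumor. Serpine2, Plau and the sum of the fibroblast genes were higher in co-culture than in monoculture. Col1a2 was at 514 and 2.97 CPM and Thy1 at 12.5 and 0.0211 CPM. Their part in the Serpine2 level was not tested. In the spheroid Serpine2 had 5 reads, and the interval of its log2 ratio to monoculture, -2.42 to 1.45, spans 0. Col1a2 was at 4.05 CPM and Thy1 at 0.286 CPM there.

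**Figure D4:**
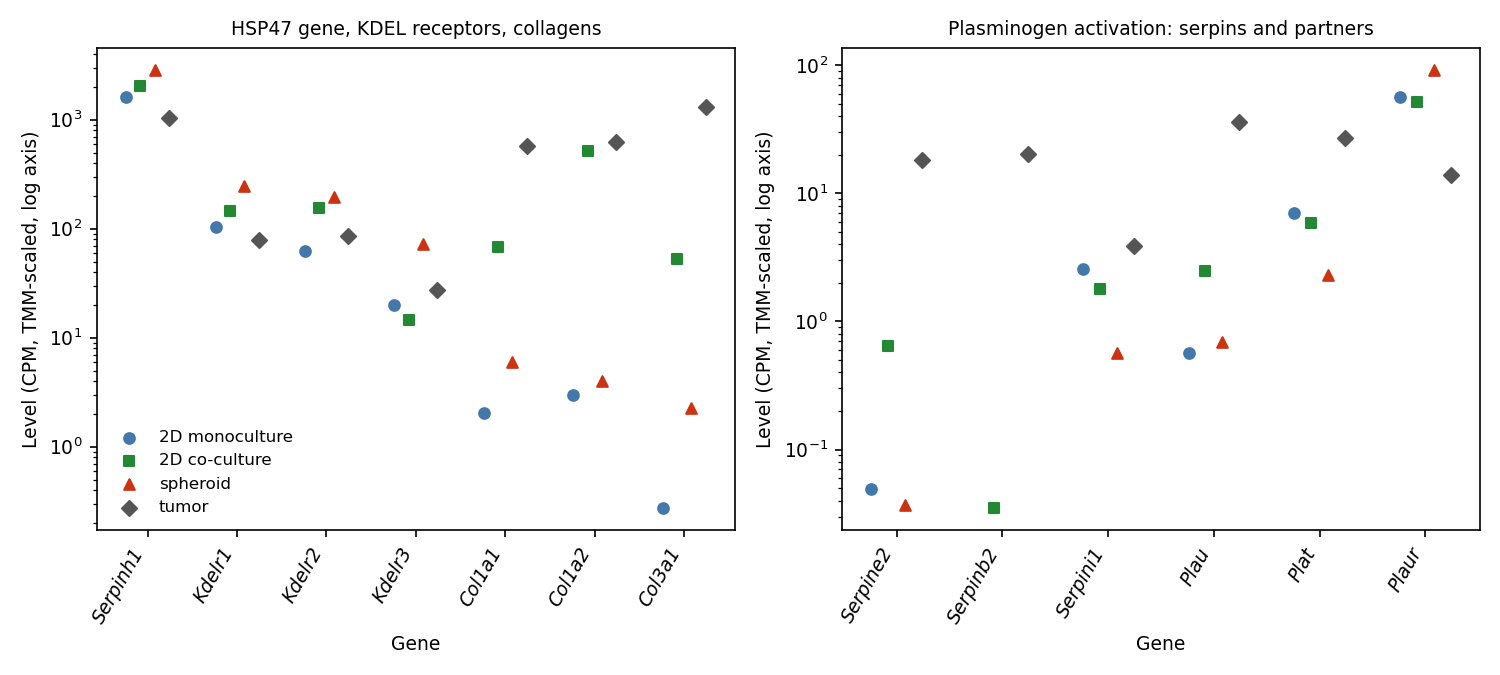
Level in TMM-scaled CPM on log axes for the 4 libraries, on the left of Serpinh1, KDEL receptor and collagen genes, on the right of serpins and partners of plasminogen activation. Levels of 0 are not drawn. Serpinh1 and Kdelr1 are highest in spheroids at 2879 and 244 CPM while Col1a1, Col1a2 and Col3a1 stay under 6 CPM there. Serpine2 runs from 0.0367 CPM in spheroids, on 5 reads, to 18.1 CPM in the tumor.

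Serpinh1 encodes HSP47, a chaperone of the endoplasmic reticulum that inhibits no protease. It binds folded procollagen and is brought back from the Golgi by KDEL receptors. Serpinf1 encodes PEDF, a secreted protein without protease inhibition that is best known for blocking vessel growth. Their promoters are shown since these genes were higher in both cultures with fibroblasts than in monoculture, although Serpinh1 stayed within 2-fold. The layout is the same as above.
Serpinh1, chr7:99353190-99353489, minus strand: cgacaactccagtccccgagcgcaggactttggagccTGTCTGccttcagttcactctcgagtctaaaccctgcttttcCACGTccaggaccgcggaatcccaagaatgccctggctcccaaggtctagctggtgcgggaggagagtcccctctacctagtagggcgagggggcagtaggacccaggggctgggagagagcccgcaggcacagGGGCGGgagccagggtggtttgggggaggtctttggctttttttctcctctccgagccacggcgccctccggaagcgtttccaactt
Serpinf1, chr11:75422574-75422873, minus strand: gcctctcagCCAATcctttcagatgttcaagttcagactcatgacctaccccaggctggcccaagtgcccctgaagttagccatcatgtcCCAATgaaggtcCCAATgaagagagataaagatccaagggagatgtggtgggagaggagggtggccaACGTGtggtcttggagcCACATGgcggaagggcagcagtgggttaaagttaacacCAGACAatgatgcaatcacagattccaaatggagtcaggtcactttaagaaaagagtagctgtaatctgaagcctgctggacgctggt
Both windows held the ACGTG core and a CAGACA box, at bases -171 and -213 in Serpinh1 and at -93 and -38 in Serpinf1, with some matches on the other strand. Of the 15 serpin entries, 2 held ACGTG. It was in 19.6% and CAGACA in 21.0% of all promoters. Serpinf1 held in addition 3 CCAAT boxes (37.4% of promoters hold 1 or more) and the E-box letters CATGTG on the other strand (14.2%), and Serpinh1 held a GC box at -37. The heat shock element, present in 0.603% of promoters, was not among the letters of either window.

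Serpinh1 (ENSMUSG00000070436.12, chr7:99345376-99353239, minus strand) had 1604 CPM in monoculture, 2047 CPM in co-culture, 2879 CPM in spheroids and 1045 CPM in the tumor. The spheroid was highest and the tumor lowest, 2.75-fold apart (log2 ratio 1.46, interval 1.45 to 1.47). Against monoculture the log2 ratio was 0.84 in spheroids, 0.35 in co-culture and -0.62 in the tumor, all within 2-fold. The longest transcript of Serpinh1 has 56.4% GC, and with the GC and length classes removed the ratio of spheroids to tumor was 0.30, that to monoculture 0.28, and that of spheroids to co-culture moved from 0.49 to -0.00420, so the call against the tumor ended.

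Of the collagen chaperone partners, 5 of 6 were more than 2-fold higher in spheroids than in monoculture, beside 11.2% of all genes. Kdelr1 had 104 CPM in monoculture, 145 CPM in co-culture, 244 CPM in spheroids and 78.1 CPM in the tumor, the same order as Serpinh1. Kdelr2 had 63.0, 154, 196 and 85.4 CPM and Kdelr3 had 19.8, 14.5, 72.8 and 27.6 CPM. The collagen genes, whose products HSP47 binds, had another order. Col1a1 had 2.03 CPM in monoculture, 67.7 CPM in co-culture, 5.93 CPM in spheroids and 575 CPM in the tumor, and Col3a1 had 0.274, 53.1, 2.28 and 1307 CPM. The library with the most Serpinh1 was thus not the one with the most of these collagen reads.

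Serpinf1 (ENSMUSG00000000753.15, chr11:75409769-75422701, minus strand) had 8.12 CPM in monoculture, 55.0 CPM in co-culture, 42.3 CPM in spheroids and 40.8 CPM in the tumor. It was low in monoculture and 5.03 to 6.78 times higher in the other 3 libraries, the mirror of Serpinb9b. The log2 ratio to monoculture was 2.38 in spheroids (2.29 to 2.47), 2.76 in co-culture (2.67 to 2.85) and 2.33 in the tumor (2.24 to 2.42). With 1 CPM added it was the 101st highest of 12728 genes for spheroids and the 63rd highest for co-culture. Between spheroids and tumor the log2 ratio was 0.05 (-0.00 to 0.10), and with 1 CPM added it was 0.05 as well, but -0.30 with total counts, -0.08 with upper quartile factors and -0.76 with the GC and length classes removed, so no direction holds. Serpinf1 had 42.3 CPM in spheroids at a Col1a2 level of 4.05 CPM, and 55.0 CPM in co-culture at 514 CPM. The candidate receptors of PEDF, Pnpla2 and Rpsa, stayed within 2-fold of monoculture in all libraries.

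Serping1, Serpina3n, Serpina3g and Serpina3c had nearly all their reads in the tumor. Serping1 encodes C1 inhibitor, which blocks the first complement proteases C1r and C1s as well as plasma kallikrein. It had 75.3 CPM in the tumor (12227 reads), 0.0842 CPM in monoculture, 0.0699 CPM in co-culture and 0.0587 CPM in spheroids, so the tumor was 894 times above monoculture. The summed levels of myeloid, endothelial, fibroblast and muscle genes were also highest in the tumor, and their part in these tumor levels was not tested. For its targets C1ra and C1s1 the gap was smaller. C1s1 had 2.37 CPM in monoculture, 13.5 CPM in co-culture, 9.08 CPM in spheroids and 53.4 CPM in the tumor. C1ra had 13.4 CPM in monoculture, 30.02 CPM in co-culture, 24.6 CPM in spheroids and 29.7 CPM in the tumor.

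Serpina3n belongs to a cluster of genes on chromosome 12 that stand for the single human antichymotrypsin gene, and its product is an acute phase protein that inhibits granzyme B and cathepsin G. It had 0.140 CPM in monoculture (20 reads), 1.29 CPM in co-culture (148 reads), 0.228 CPM in spheroids (31 reads) and 102 CPM in the tumor (16622 reads), 729 times the level of monoculture (log2 ratio 9.51, interval 8.88 to 10.22). Of the cultures, co-culture was highest, 9.21 times above monoculture (log2 ratio 3.20, interval 2.52 to 3.96). With 1 CPM added this ratio was 1.01 and lay at the limit of 2-fold, and it was 0.98 with total counts. Serpina3g, an intracellular inhibitor of lysosomal cathepsins known from activated lymphocytes and myeloid cells, had 0 reads in monoculture, 53 in co-culture, 2 in spheroids and 2212 in the tumor. Serpina3c had 903 reads in the tumor and 1 to 4 in each culture.

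Low members of this cluster set co-culture apart from the other cultures. Serpina3h had 114 reads in co-culture, 103 in the tumor, 1 in spheroids and 0 in monoculture, and Serpina3i had 55, 109, 0 and 0. Against the same limit of 3 reads in monoculture, co-culture was at least 47.3-fold higher for Serpina3h and at least 22.8-fold higher for Serpina3i, and the exact intervals of the log2 ratio began at 5.24 and 4.16. Serpina3f also had more reads in co-culture (15) than in spheroids (1) or monoculture (0), but 614 in the tumor. Serpina3m had 2, 1, 0 and 345 reads in the same order. The transcript of Serpina3g was identical to that of Serpina3n at 78.5% of 1787 aligned bases, and that of Serpina3c at 79.3% of 2089. Among these genes Serpina3m shared 0.331% of its windows of 150 bases with Serpina3k, and no other sharing was found.

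Genes that are high in the tumor and near 0 in a culture were read against genes that melanoma cells are not known to use. The 5 skeletal muscle genes, among them Acta1 and Myh4, stood at a median of 0.0294% of the tumor level in monoculture, 0.195% in co-culture and 0.130% in spheroids. Serping1 stood at 0.112%, 0.0928% and 0.0780%, and Serpinb2 at 0.172% in co-culture. In monoculture Serping1 lay above the muscle median with its whole interval (0.0578% to 0.195%). That interval spans 0.0742%, the highest muscle gene there apart from Mylpf (0.446%). In co-culture and spheroids the values of Serping1 and Serpinb2 lay under the muscle median. The interval of Serping1 lay wholly under it in co-culture (0.0401% to 0.183%) but spans it in spheroids (0.0337% to 0.154%). That of Serpinb2 spans it in co-culture (0.0468% to 0.439%). In spheroids Serpinb2 had 0 reads, and its interval reached 0.133%. In co-culture, however, Serpina3g stood at 3.40% of the tumor level, Serpine2 at 3.57% and Serpina3n at 1.26%, above the highest muscle gene there, Mylpf (0.569%), also at the lower end of their intervals. Serpinb1a at 0.717% (interval 0.510% to 0.980%) and Serpina3c at 0.628% (0.171% to 1.61%) had intervals that span it. In the spheroid Serpina3n was at 0.222%, Serpine2 at 0.203%, Serpinb1a at 0.170% and Serpina3g at 0.108%. There Mylpf stood at 1.35% and the other 4 muscle genes at 0.124% to 0.140%. Serpina3n lay under Mylpf, and its whole interval (0.151% to 0.316%) lay above the values of these 4. The intervals of Serpine2 (0.0658% to 0.473%) and Serpinb1a (0.0848% to 0.304%) span these values. The muscle values were taken without their own counting error, so the place of Serpina3n above the 4 is not firm. The part of tumor RNA or fibroblast RNA in these culture levels was not tested.

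**Figure D5:**
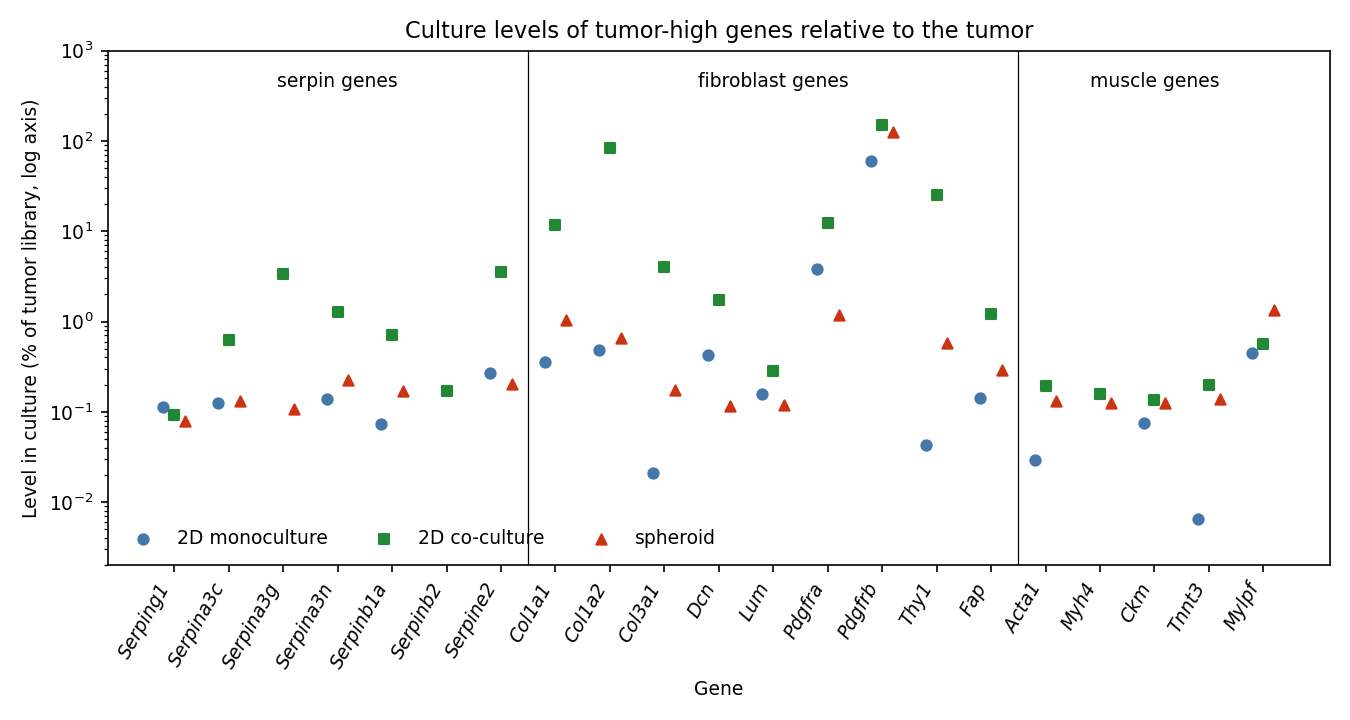
Level in each culture as a percent of the tumor library, on a log axis, for 7 serpin genes, 9 fibroblast genes and 5 skeletal muscle genes. Genes at 0 reads in a culture have no point there. In co-culture Serpina3g and Serpine2 stand at 3.40% and 3.57% of the tumor level, whereas Serping1 stands at 0.0928%.

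The 20 members with a mean under 1 CPM had 12 to 630 reads over the 4 libraries, and 15 of them had their highest CPM in the tumor. The share over all genes was not counted. Serpina3f, at 3.78 CPM in the tumor, had the highest level among them. The antitrypsin genes Serpina1a, Serpina1b and Serpina1c had 20, 14 and 22 reads in all and share 40.7%, 16.4% and 50.5% of their windows of 150 bases with other genes of the group or with Gm8893, so that their reads cannot be split between them with confidence. Liver genes were as rare: 5 hepatocyte genes summed to at most 0.492 CPM in any library. The keratinocyte serpins Serpinb5 (maspin) and Serpinb12 had 23 and 55 reads in the tumor, where 5 keratinocyte genes summed to 1.95 CPM. Serpine3 had 48 to 98 reads in each library, and 24.8% of its exon bases overlap Ints6 on the other strand. The other low members were Serpina11, Serpina12, Serpina3h, Serpina3i, Serpina3k, Serpina3m, Serpinb10, Serpinb1b, Serpinb1c, Serpinb6c, Serpinc1 (antithrombin), Serpind1 (heparin cofactor II) and Serpinf2 (alpha-2-antiplasmin).

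The partner list held 48 genes of target proteases, receptors and cofactors, of which 29 had a mean of at least 1 CPM. Against monoculture 6 were higher and 2 lower in spheroids, 10 higher and 1 lower in co-culture, and 15 higher and 2 lower in the tumor, with median log2 ratios of 0.25, 0.45 and 1.09. Over all genes the shares were 11.2% and 17.9% in spheroids, 3.79% and 9.51% in co-culture and 14.8% and 18.2% in the tumor, and the medians 0.05, 0.01 and -0.14. Under 1 CPM in every culture lay 2 neutrophil and mast cell proteases, 2 lysosomal cysteine proteases and 1 caspase of the 29. These reached the mean through the tumor library, so the limit fixed their place among the 15. The tumor count and median of the partners are therefore a description only. Lrp1, the receptor that clears serpin and protease complexes, was at 99.0 to 120 CPM in all libraries. F3, which encodes tissue factor, the starter of clotting, had 34.6 CPM in monoculture, 88.0 CPM in co-culture, 50.8 CPM in spheroids and 55.3 CPM in the tumor. Ctsb, a lysosomal cysteine protease, had 1369 CPM in monoculture, 593 CPM in co-culture, 770 CPM in spheroids and 1379 CPM in the tumor. With 1 CPM added its log2 ratio to monoculture was -1.21 in co-culture and -0.83 in spheroids, the latter within 2-fold. The neutrophil and mast cell proteases summed to 16.4 CPM in the tumor and at most 0.154 CPM in the cultures.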

How the data were processed

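The authors deposited 1 table of raw counts, whole numbers of reads per gene symbol, for 4 libraries, 1 per condition. Per the labels, poly(A) RNA was sequenced as paired reads of 150 bases, and the submitters' processing notes name Trimmomatic, STAR, featureCounts and build mm10, whereas versions, settings and how reads of more than 1 match were treated are not stated in the sources used here. Totals were 118896900 to 150028663 reads, and 3 reads came to 0.0185 to 0.0262 CPM.

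CPM used TMM factors of edgeR 4.0.16 in R 4.3.3, from 0.908 for the spheroid to 1.16 for the tumor. With 1 library per condition no test was made. Single-gene log2 ratios add nothing and have exact binomial intervals, CPM and shares have exact Clopper-Pearson intervals, and counts, medians and ranks add 1 CPM. Alternatives were scaling by total counts, by upper quartiles or by DESeq2 1.42.0, pseudocounts of 0.1 and 5 CPM, other filters, and removal of the median log2 ratio of 10 classes of GC content by 10 of length. Scripts ran in Python 3.11.15 with scipy 1.17.1, numpy 2.4.6 and pandas 2.3.3. The ratios were checked on simulated data. Lengths, GC content, positions and overlaps came from GENCODE vM21 on GRCm38, the assembly of mm10, and promoters from RefSeq (GRCm38.p6).

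Of the 16 serpin genes that reached a mean of 1 CPM, 15 are given with their value in all 4 libraries, and 1 is counted in the sums, counts and medians but is not reported here. Beside them stand at most 12 partners with a mean of at least 10 CPM that lay past 2-fold between any pair of libraries. Col1a2, Thy1 and Pdgfrb are named as fibroblast markers, the last chosen after its values were seen. Plau, Lrp1, Rpsa, granzyme B and the flanking gene Wrnip1 fall outside that rule and were chosen after their values were seen. The members and lists were chosen with earlier results of these data known.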

Additional observations from a re-analysis of the deposited data

How the results depend on the processing

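No paired analysis was possible because no condition has more than 1 library, and for the same reason no library could be left out. A count that moved by at most 1.5 times was read as unchanged, a median by at most 1.5-fold likewise. With DESeq2 size factors, total counts and upper quartile factors all counts and medians of the 5 comparisons stayed within that limit, although with total counts the genes higher in co-culture than in monoculture went from 3 to 2, and of 37 single-gene differences past 2-fold, 37, 36 and 37 remained past it in the same direction. Total counts moved the median of all genes from 0.08 to -0.27 between spheroids and tumor and from -0.14 to 0.09 between tumor and monoculture, where upper quartile factors gave 0.10. With the GC and length classes removed 30 of the 37 remained. Lost were Serpini1 for spheroids to monoculture, Serpinb8 and Serpina3n for co-culture to monoculture, and Serpini1, Serpinh1, Serpinb6a and Serpinb6b for spheroids to tumor.

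With a pseudocount of 0.1 CPM, 6 genes were higher in co-culture than in monoculture, 7 were lower in spheroids than in co-culture, and the median for spheroids to tumor was -4.43. With 5 CPM, 3 genes were lower in spheroids than in monoculture, 2 were higher and 2 lower in co-culture, and the medians were 1.44 for tumor to monoculture and -1.56 for spheroids to tumor. Without a filter beyond 10 reads (36 genes) these medians were 0.31 and -0.51. With a mean of at least 10 CPM (8 genes), 2 genes were lower in spheroids, 1 in co-culture and 0 in the tumor against monoculture, 5 were higher in the tumor, 6 were lower in spheroids than in the tumor, and that median was -3.81. With the GC and length classes removed, 2 genes were higher and 2 lower in co-culture than in monoculture, 2 were lower in spheroids than in co-culture and 0 were higher than in the tumor. Over the 10 genes with at least 1 CPM in a culture, chosen after seeing the data, the medians were -0.92 for spheroids to monoculture, 0.57 for tumor to monoculture and -1.48 for spheroids to tumor, with 3 genes higher in the tumor than in monoculture and 7 lower in spheroids than in the tumor. Serpina3n, in both of these counts, reached the limit only with its tumor level. Filters leave other genes in the count. For the other changes the cause was not tested. Leaving out Serpinh1 moved the shares of reads to 0.0206% in monoculture, 0.0199% in co-culture, 0.0123% in spheroids and 0.0800% in the tumor. With all exon bases in place of the longest transcript, 16 of 16 genes kept their rank of level in monoculture, 8 in co-culture, 10 in spheroids and 10 in the tumor, and with coding length 12, 12, 14 and 7.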
